A study of Mus musculus with 16 samples.

Results

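The genes described here are 37 genes of the lysosome, taken as a list of symbols chosen with earlier results of these data known. The list covers proteases, glycosidases and sulfatases, lipid-handling proteins, membrane proteins, acidification machinery and 2 regulators. A probe matched 35 of the 37, and these were tested among 31484 genes in all. Gusb and Npc1 matched no probe and are not analysed here. Where a gene had several probes, the probe with the highest mean over the 16 arrays stood for it. All 35 probes were well above background on all 16 arrays. The RNA came from livers of 16 male mice, 6 weeks old, of a mixed background of 75% C57BL/6 and 25% SV129, and the study concerns ceramide synthase 2 (CerS2), which makes ceramides that carry a very long fatty acid. The labels name 4 genotypes with 4 mice each: WT, H/A (condition HA, CerS2 H/A), Del (condition delHox, CerS2 Del) and Flox (condition delneo, CerS2 Flox). What the delHox and delneo alleles contain is not given in the labels. For short, H/A and Del are called mutant lines here and WT and Flox control lines, which are not names of the labels. Each mouse gave 1 array. No treatment is named, and all groups share the mixed background.

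The lysosome is the acidic compartment in which cells break down proteins, glycans and lipids delivered by endocytosis and autophagy. Its enzymes act on sphingolipids among other substrates: hexosaminidases, sulfatases and galactosidases trim the head groups of glycosphingolipids, with saposins and the GM2 activator as cofactors, and the ceramide that is left is then split. The transcription factor Tfeb can switch on many lysosomal genes together through a short palindromic promoter element known as CLEAR. In liver, both hepatocytes and Kupffer cells, the resident macrophages, are rich in lysosomes.

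The core of that element was searched for in promoter windows of 300 bases around RefSeq start sites (GRCm38.p6), because the members described below can carry it. All motifs searched are their own reverse complement, so 1 search covers both strands. Windows were found for 32 of the 37 genes. The 6-base core CACGTG was in 11 of the 32 (34.4%) and in 8.09% of 27025 genes. The 8-base form TCACGTGA, which contains that core, was in 5 of the 32 (15.6%), namely Atp6v0d1, Ctsa, Ctsd, Gla and Mcoln1, and in 1.12% of all genes. The 10-base form GTCACGTGAC, which contains both, was in 0 of the 32 and in 0.37% of all genes. The 7 copies of the 8-base form are shown 5′ to 3′ on the strand of the gene, with the motif in capitals.
Atp6v0d1, chr8:105566050-105566079, minus strand: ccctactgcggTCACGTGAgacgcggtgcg
Ctsa, chr2:164833749-164833778, plus strand: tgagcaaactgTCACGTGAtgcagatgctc
Ctsa, chr2:164833766-164833795, plus strand: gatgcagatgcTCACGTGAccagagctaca
Ctsd, chr7:142387908-142387937, minus strand: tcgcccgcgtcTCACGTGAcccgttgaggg
Gla, chrX:134601215-134601244, minus strand: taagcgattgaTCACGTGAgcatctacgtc
Gla, chrX:134601182-134601211, minus strand: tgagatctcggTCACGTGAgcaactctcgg
Mcoln1, chr8:3500462-3500491, plus strand: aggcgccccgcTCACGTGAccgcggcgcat
The Ctsa copies began 13 bases before and at base 5 after the start site, the Atp6v0d1 copy 4 bases before it, the Mcoln1 copy 46, the Ctsd copy 99, and the Gla copies 228 and 195 bases before it. A match of letters is a description and not a binding site.

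Before any comparison, the pairing of files with samples has to be stated. For 6 of the 16 samples (H/A replicate 4, WT replicate 3, Del replicate 1 and Flox replicates 1, 2 and 4) the scanner file listed for the sample is of another slide than the label names. All 16 columns of the deposited value table matched best the scanner file at the slide and position in their label (r from 0.884 to 0.994), while the listed files of those 6 gave r from -0.3 to 0.169. The value table, by its sample columns, is used throughout, and the main counts are also given without those 6 arrays, which leaves 1 Flox array, assumed to vary like the other groups. By the labels, the H/A arrays left are then all on slide 1 and the Del and Flox arrays all on slide 2. The WT arrays left are on both. Slide and group are therefore partly mixed in that fit, which has no slide term. Levels are log2 values after quantile normalisation. Each array had 51.6% to 65.2% of its spots well above background, and no spot was saturated. Differences are log2 differences of group means with their SE from 1 limma fit of all 16 arrays (4 a group), and adjusted p values are from limma with Benjamini-Hochberg adjustment over all 31484 genes. A gene was called at an adjusted p under 0.05, and "rose" is used of called genes. The number of arrays limits the precision. Each p value sets a difference of group means against the spread between these arrays, pooled over the 4 groups and moderated by limma over all genes.

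Many lysosomal genes were higher in both mutant lines than in the control lines, among them Cd63, Ctss, Grn, Arsa and Hexa. In H/A against WT, 14 of 35 members rose and 0 fell, where 7.08% of all genes rose and 2.97% fell. In Del against WT, 15 rose and 0 fell, where 8.85% of all genes rose and 4.38% fell. In Del against Flox, 22 rose and 0 fell, where 16.6% of all genes rose and 18.2% fell. Over the 17666 tested genes that carry a symbol, the shares that rose were 9.08%, 11.0% and 20.6%. The members were chosen with earlier results of these data known, so these shares describe the list and are no independent support. At an unadjusted p under 0.05 in the same limma fit, 1 member was lower in H/A against WT (Galc), 0 in Del against WT and 2 in Del against Flox (Gla and Tfeb). The median difference over the 35 members was 0.41, 0.45 and 0.55, beside -0.09, -0.11 and -0.14 over all genes. Del was compared with WT and with Flox, and H/A with the same WT arrays as Del, so only H/A against WT and Del against Flox share no arrays. All 14 members that rose in H/A against WT also rose in Del against Flox (100% of the 14 and 63.6% of the 22). No such overlap was computed over all genes, and both comparisons come from the same fit with a pooled spread. Most of 16 macrophage markers were higher too: 11, 9 and 9 rose and 0, 0 and 2 fell. Their linear levels were summed, so the brightest markers weigh most. In log2 units the sum was 12.60 to 13.26 in WT and 12.78 to 13.24 in Flox, and 13.45 to 14.40 in H/A and 13.58 to 13.72 in Del. The part of macrophages in the rise of the lysosomal genes was not tested. In bulk liver RNA, more cells of a type and more RNA per cell cannot be told apart.

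In either direction, 10.1%, 13.2% and 34.8% of all genes were called. Without scaling between arrays these shares were 30.3%, 7.12% and 13.9%, and 29, 10 and 17 members rose and 0 fell. The H/A arrays were brighter before scaling, with a 75th percentile of spot signal of 109 to 173 beside 89.7 to 98.8 in WT. The median over all genes in H/A against WT then moved from -0.09 to 0.37 and that of the members from 0.41 to 0.96. The share of rises among all calls went from 70.4% to 98.7% in H/A against WT, from 66.9% to 80.5% in Del against WT and from 47.8% to 78.1% in Del against Flox. Without the 6 arrays named above, 3, 5 and 2 members rose and 0 fell, with medians of 0.44, 0.42 and 0.62, and 1.92%, 4.0% and 0.778% of all genes were called in either direction. Leaving out single arrays lowered the count in H/A against WT to 9 without H/A replicate 2, WT replicate 1 or WT replicate 3 and to 7 without H/A replicate 3 or WT replicate 4, and that in Del against WT to 9 without Del replicate 3. The share of all genes called went with it, to 4.61% in H/A against WT without WT replicate 4 and to 6.95% in Del against WT without Del replicate 3. Without WT replicate 2 it was 25.5% in H/A against WT, and the share of rises among all calls there went from 70.4% to 47.2%, while 17 members rose and 1 fell. Within the first slide the medians were 0.40, 0.38 and 0.53 with 0 members called by limma, and 11, 6 and 10 at an unadjusted p under 0.05. Within the second slide they were 0.46, 0.55 and 0.61 with 2, 9 and 13 called. The first slide held 1 Del array and the second 1 H/A array, each assumed to vary like the other groups. In these 3 comparisons a smaller share of all genes was called within either slide than with all arrays.

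The mutant lines did not differ from each other beyond the threshold, nor did the control lines. In H/A against Del, limma called 0 of 35 members and 0.0127% of all genes, with 2 members at an unadjusted p under 0.05 (Hexa and Galc), and the intervals of the members' differences lay between -0.89 and 1.03. In Flox against WT, 0 members and 0.0222% of all genes were called, with 4 members at an unadjusted p under 0.05, all lower in Flox (Lamp2, Ctsl, Galc and Naglu). The intervals there lay between -1.21 and 1.09.

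In 15 of 35 members all 4 H/A arrays lay above all 4 WT arrays, which held for 9.02% of all genes. In 17 all Del arrays lay above all WT arrays (10.6% of all genes), and in 21 all Del arrays lay above all Flox arrays (15.9% of all genes). The arrays also differed within groups. WT replicate 2 was the highest WT array for 21 of 35 members, Del replicate 3 the highest Del array for 27 and H/A replicate 1 the lowest H/A array for 26. The heat map of all members by array shows these columns and the step between control and mutant lines.

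**Figure D1:**
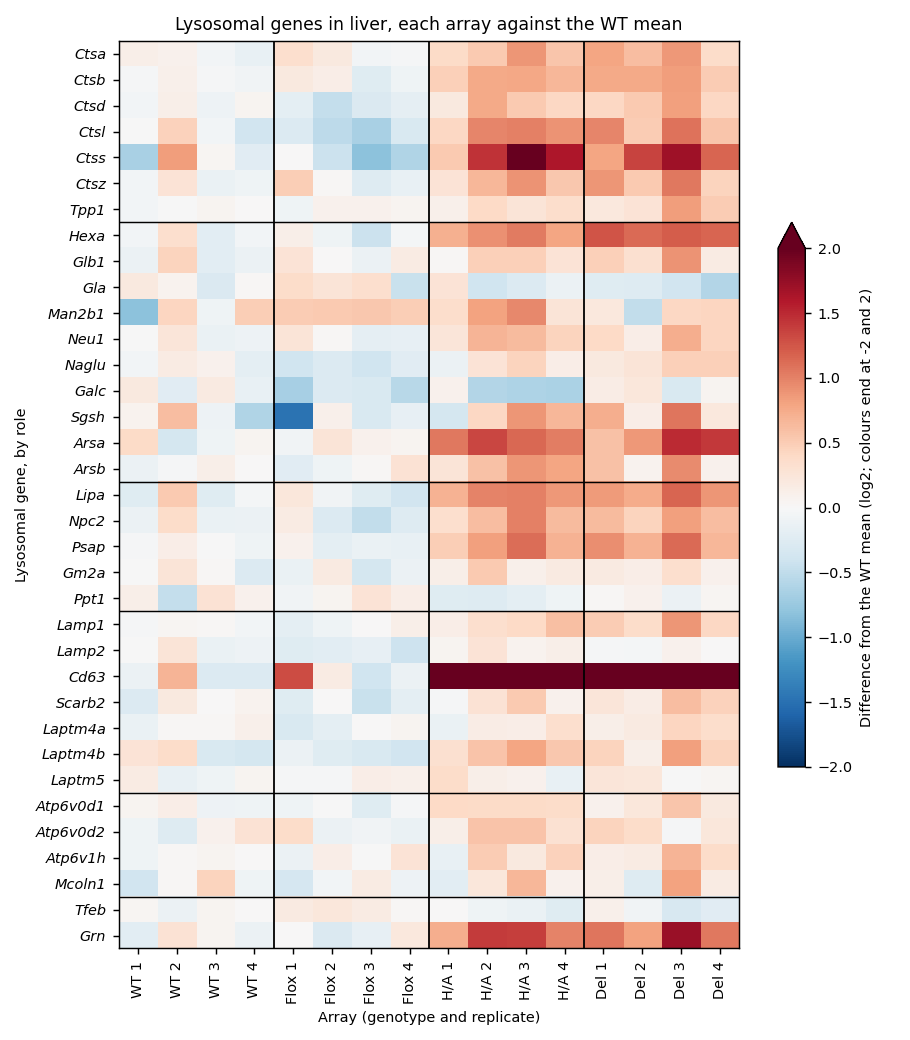
Heat map of 35 lysosomal genes (rows, grouped by role between the horizontal lines) on 16 arrays (columns, by genotype and replicate). Colour gives the difference of each array from the mean of the WT arrays in log2 units, and ends at -2 and 2, which Cd63 exceeds on all 8 mutant arrays.

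Among the membrane proteins, Cd63 stood out. Cd63 is a tetraspanin of late endosomes, lysosomes and exosomes. It read 7.98, 8.78, 7.83 and 7.82 on the WT arrays, 9.40, 8.27, 7.70 and 7.98 on the Flox arrays, 10.77, 11.73, 12.01 and 11.14 on the H/A arrays and 11.43, 10.78, 12.37 and 10.92 on the Del arrays. All 8 mutant arrays lay above all 8 control arrays, and the control arrays differed among themselves, with WT replicate 2 and Flox replicate 1 highest. The differences were 3.31 ± 0.40 (adjusted p = 0.00028) in H/A against WT, 3.27 ± 0.40 (adjusted p = 0.000139) in Del against WT and 3.04 ± 0.40 (adjusted p = 0.000221) in Del against Flox, which are 9.90-fold, 9.65-fold and 8.21-fold. In the 3 comparisons Cd63 was called whichever single array was left out, with differences of 2.70 to 3.53, and also without the 6 arrays whose listed files are of another slide. Within the first slide it was 3.12, 3.05 and 2.59 higher without a call, and within the second 3.31, 3.53 and 3.52. It rests on 1 probe that passed the filter, of 48 bases, whose first 30 bases are given as the scanner file lists them.
Cd63 probe: ctcctgctgtctggtgaagagtattcgaag

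Lamp1 and Lamp2 encode the heavily glycosylated proteins that line the lysosomal membrane. Lamp1 read 12.64, 12.70, 12.68 and 12.60 on the WT arrays, 12.46, 12.57, 12.66 and 12.77 on the Flox arrays, 12.80, 12.99, 13.06 and 13.26 on the H/A arrays and 13.17, 13.03, 13.55 and 13.08 on the Del arrays. All mutant arrays lay above all control arrays. It rose in Del against WT, 0.55 ± 0.13 (adjusted p = 0.0132), and in Del against Flox, 0.59 ± 0.13 (adjusted p = 0.00561), and was 0.37 ± 0.13 (adjusted p = 0.0794) in H/A against WT. Lamp2 read 11.25, 11.52, 11.12 and 11.16 on the WT arrays, 11.01, 11.05, 11.09 and 10.85 on the Flox arrays, 11.31, 11.53, 11.33 and 11.37 on the H/A arrays and 11.23, 11.22, 11.34 and 11.26 on the Del arrays. Its differences were 0.12 ± 0.11 (adjusted p = 0.455), 0.00 ± 0.11 and 0.26 ± 0.11 (adjusted p = 0.0739) in the 3 comparisons, with an interval of -0.24 to 0.23 in Del against WT. All Flox arrays lay below all other arrays, and the other 3 groups overlapped. A second Lamp2 probe gave 0.04, 0.12 and 0.22. The first 30 bases of both Lamp2 probes are shown because both gave small differences that did not pass the test.
Lamp2 probe used: tttaaggtctgtcttaagaagctttggcca
Lamp2 second probe: tagctgatgtacgtacgatatctcttctca

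The other membrane proteins are Scarb2, the receptor that carries glucocerebrosidase to the lysosome, and Laptm4a, Laptm4b and Laptm5, small proteins with several membrane spans. Scarb2, Laptm4a and Laptm4b rose in Del against Flox, by 0.58 ± 0.16, 0.39 ± 0.13 and 0.71 ± 0.18, and lay 0.22, 0.12 and 0.56 higher in H/A than in WT without a call. Laptm5, which is mainly a gene of blood cells, read 7.71, 7.39, 7.45 and 7.60 on the WT arrays, 7.52, 7.52, 7.68 and 7.64 on the Flox arrays, 7.90, 7.66, 7.63 and 7.39 on the H/A arrays and 7.78, 7.76, 7.53 and 7.58 on the Del arrays. All 4 groups overlapped, and its differences were 0.11 ± 0.12, 0.12 ± 0.12 and 0.07 ± 0.12, with an interval of -0.16 to 0.37 in H/A against WT. Of the 7 membrane proteins 1, 2 and 5 rose in the 3 comparisons, beside 7.08%, 8.85% and 16.6% of all genes. The counts in the comparisons with WT are too small to set against these shares. The calls of Scarb2 (without Del replicate 3, range 0.50 to 0.65) and Laptm4a (without any of Del replicates 3 and 4 and Flox replicates 1 and 2, range 0.32 to 0.44) were lost when single arrays were left out.

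All the proteases were higher in Del. All 7 rose in Del against WT and in Del against Flox, with medians of 0.72 in both. In H/A against WT 5 of 7 rose, with a median of 0.60. The shares of all genes that rose were 8.85% in Del against WT, 16.6% in Del against Flox and 7.08% in H/A against WT. Ctss, cathepsin S, a cysteine protease of antigen-presenting cells, read 6.61, 8.09, 7.30 and 7.04 on the WT arrays, 7.26, 6.83, 6.44 and 6.66 on the Flox arrays, 7.78, 8.71, 9.33 and 8.87 on the H/A arrays and 8.05, 8.61, 8.95 and 8.42 on the Del arrays. WT replicate 2 reached into the range of the mutant arrays, and the Flox arrays did not. The differences were 1.41 ± 0.33 (adjusted p = 0.0163) in H/A against WT, 1.25 ± 0.33 (adjusted p = 0.0229) in Del against WT and 1.71 ± 0.33 (adjusted p = 0.00261) in Del against Flox. A second Ctss probe rose too, by 1.12, 1.03 and 1.09. Both are shown by their first 30 bases because the size of the difference depends on the probe.
Ctss probe used: gcctgcaatatccagaggaaccaagtgtgt
Ctss second probe: tcgaatattctatgggaatgcatacctacc
Ctsl, cathepsin L, read 11.12, 11.59, 11.08 and 10.75 on the WT arrays, 10.86, 10.60, 10.48 and 10.83 on the Flox arrays, 11.55, 12.10, 12.13 and 12.03 on the H/A arrays and 12.11, 11.64, 12.22 and 11.69 on the Del arrays. H/A replicate 1 lay just below WT replicate 2, and all Flox arrays lay below all mutant arrays. The differences were 0.82 ± 0.19 (adjusted p = 0.0163) in H/A against WT, 0.78 ± 0.19 (adjusted p = 0.0154) in Del against WT and 1.22 ± 0.19 (adjusted p = 0.000681) in Del against Flox.

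Ctsb, cathepsin B, an abundant cysteine protease of the lysosome, read 12.41, 12.53, 12.41 and 12.36 on the WT arrays, 12.62, 12.56, 12.18 and 12.35 on the Flox arrays, 12.91, 13.18, 13.21 and 13.09 on the H/A arrays and 13.18, 13.19, 13.26 and 12.94 on the Del arrays. All mutant arrays lay above all control arrays. The differences were 0.67 ± 0.12 (adjusted p = 0.00378) in H/A against WT, 0.72 ± 0.12 (adjusted p = 0.00141) in Del against WT and 0.72 ± 0.12 (adjusted p = 0.0011) in Del against Flox, and the call held whichever single array was left out. Ctsd, cathepsin D, the aspartic protease whose promoter carries the 8-base motif, read 10.85, 11.02, 10.81 and 10.96 on the WT arrays, 10.71, 10.43, 10.62 and 10.73 on the Flox arrays, 11.10, 11.66, 11.43 and 11.33 on the H/A arrays and 11.32, 11.44, 11.73 and 11.33 on the Del arrays. It rose by 0.47 ± 0.14, 0.55 ± 0.14 and 0.83 ± 0.14, and all mutant arrays lay above all control arrays. Ctsa, cathepsin A, which also protects beta-galactosidase and Neu1 in a complex and whose promoter carries 2 copies of the motif, read 10.71, 10.67, 10.54 and 10.44 on the WT arrays, 10.92, 10.79, 10.53 and 10.57 on the Flox arrays, 10.98, 11.12, 11.47 and 11.15 on the H/A arrays and 11.38, 11.21, 11.46 and 10.96 on the Del arrays. Its lowest mutant array lay just above its highest control array, and it rose by 0.59 ± 0.14, 0.66 ± 0.14 and 0.55 ± 0.14.

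Ctsz, cathepsin Z, read 11.01, 11.34, 10.94 and 10.99 on the WT arrays, 11.56, 11.10, 10.81 and 10.92 on the Flox arrays, 11.35, 11.74, 11.97 and 11.61 on the H/A arrays and 11.96, 11.60, 12.12 and 11.52 on the Del arrays. Flox replicate 1 overlapped the mutant arrays. Ctsz rose in Del against WT, 0.73 ± 0.19 (adjusted p = 0.0187), and in Del against Flox, 0.70 ± 0.19 (adjusted p = 0.0136), and was 0.60 ± 0.19 (adjusted p = 0.0549) in H/A against WT. Tpp1, tripeptidyl peptidase 1, read 10.63, 10.67, 10.74 and 10.69 on the WT arrays, 10.59, 10.76, 10.77 and 10.74 on the Flox arrays, 10.78, 11.08, 10.93 and 11.03 on the H/A arrays and 10.89, 10.95, 11.51 and 11.19 on the Del arrays. All mutant arrays lay above all control arrays by a narrow margin, and it rose by 0.45 ± 0.13 in Del against WT and 0.42 ± 0.13 in Del against Flox. For Ctss, the H/A against WT call ended on leaving out H/A replicate 3, WT replicate 1 or WT replicate 4 (range 1.19 to 1.71), and in Del against WT without WT replicates 1, 3 or 4 or Del replicate 3 (1.03 to 1.53). For Ctsd, it was lost without 6 of the 8 arrays (0.37 to 0.56), all but H/A replicate 1 and WT replicate 2, and in Del against WT without Del replicate 3 (0.46 to 0.59). For Ctsl, leaving out H/A replicate 2, H/A replicate 3 or WT replicate 4 ended it (0.69 to 0.97), and in Del against WT without WT replicate 4 or Del replicate 3 (0.65 to 0.93). For Ctsa, leaving out H/A replicate 3, WT replicate 3 or WT replicate 4 ended it (0.49 to 0.66). Ctsz lost its call in Del against WT without WT replicate 3 or 4 or Del replicate 3 (0.62 to 0.82), and in Del against Flox without Del replicate 3 (0.60 to 0.86). Tpp1 lost its call in Del against WT without WT replicate 1, 3 or 4 or Del replicate 3 or 4 (0.33 to 0.53), and in Del against Flox without Del replicate 3 or 4 or Flox replicate 1 (0.29 to 0.50).

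**Figure D2:**
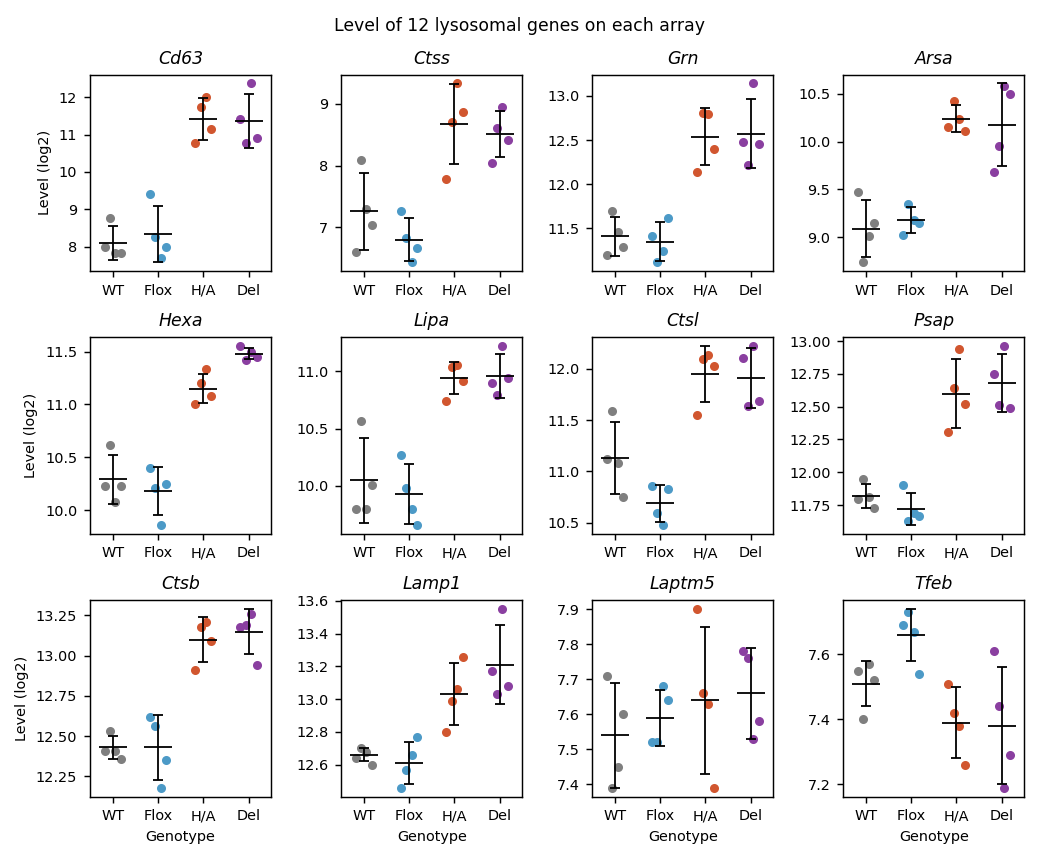
Level of 12 lysosomal genes on each array, in log2 units on an axis of its own for each gene, by genotype. Points are arrays, horizontal bars are group means and error bars are 1 SD (n = 4). The 8 mutant arrays of Cd63 lie between 10.77 and 12.37, above the control arrays at 7.70 to 9.40, while those of Laptm5 overlap the control arrays.

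The glycosidases and sulfatases were uneven, with 3, 2 and 5 of 10 rising in the 3 comparisons. Of all genes, 7.08%, 8.85% and 16.6% rose there. Hexa, the alpha subunit of beta-hexosaminidase, which removes a sugar from the ganglioside GM2, read 10.23, 10.62, 10.08 and 10.23 on the WT arrays, 10.40, 10.21, 9.86 and 10.25 on the Flox arrays, 11.00, 11.20, 11.33 and 11.08 on the H/A arrays and 11.55, 11.42, 11.50 and 11.45 on the Del arrays. All mutant arrays lay above all control arrays, and the 4 Del arrays lay above the 4 H/A arrays. The differences were 0.86 ± 0.14 (adjusted p = 0.00172) in H/A against WT, 1.19 ± 0.14 (adjusted p = 9.33e-05) in Del against WT and 1.30 ± 0.14 (adjusted p = 5.26e-05) in Del against Flox, and the difference of H/A from Del was -0.33 ± 0.14 (adjusted p = 0.585), with an unadjusted interval of -0.63 to -0.03. Arsa, arylsulfatase A, which removes sulfate from sulfatide, read 9.47, 8.74, 9.01 and 9.15 on the WT arrays, 9.02, 9.35, 9.18 and 9.15 on the Flox arrays, 10.15, 10.43, 10.24 and 10.11 on the H/A arrays and 9.68, 9.95, 10.58 and 10.50 on the Del arrays. The mutant arrays did not overlap the control arrays, and the Del arrays spread more than the H/A arrays. The differences were 1.14 ± 0.19 (adjusted p = 0.0023) in H/A against WT, 1.09 ± 0.19 (adjusted p = 0.002) in Del against WT and 1.00 ± 0.19 (adjusted p = 0.00249) in Del against Flox. Both were called whichever single array was left out.

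Neu1, the lysosomal sialidase, read 8.92, 9.17, 8.79 and 8.83 on the WT arrays, 9.19, 8.95, 8.75 and 8.76 on the Flox arrays, 9.17, 9.61, 9.56 and 9.37 on the H/A arrays and 9.33, 9.07, 9.65 and 9.36 on the Del arrays. WT replicate 2 and Flox replicate 1 were the highest control arrays and reached the lowest mutant arrays. Neu1 rose in H/A against WT, 0.50 ± 0.15 (adjusted p = 0.0493), and in Del against Flox, 0.44 ± 0.15 (adjusted p = 0.0377), both near the threshold, and each call was lost without 6 of the 8 arrays. With the slide as a block the call in H/A against WT was lost (0.46, adjusted p = 0.0642) and Neu1 was called in Del against WT (0.47, adjusted p = 0.0415). In H/A against WT, H/A replicate 1 and WT replicate 2 could be left out without loss (all values 0.44 to 0.59), and in Del against Flox, Del replicate 2 and Flox replicate 1 could (0.34 to 0.54). Sgsh, a sulfamidase of heparan sulfate breakdown, read 6.11, 6.65, 5.94 and 5.44 on the WT arrays, 4.57, 6.14, 5.73 and 5.87 on the Flox arrays, 5.69, 6.45, 6.93 and 6.71 on the H/A arrays and 6.77, 6.17, 7.11 and 6.25 on the Del arrays. Its arrays spread widely, with Flox replicate 1 lowest, and it was called only in Del against Flox, 1.00 ± 0.36 (adjusted p = 0.0415), at 0.66 without Flox replicate 1. That call was also lost without Del replicates 1 or 3 or Flox replicates 3 or 4 (0.66 to 1.19). Naglu, another enzyme of heparan sulfate breakdown, rose by 0.68 ± 0.13 in Del against Flox and was 0.19 ± 0.13 and 0.35 ± 0.13 in the comparisons with WT.

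The remaining enzymes of this group passed the test in none of the comparisons, but with the slide as a block Galc rose in Del against Flox, by 0.50 (adjusted p = 0.0459). Galc, galactosylceramidase, read 4.55, 4.13, 4.54 and 4.21 on the WT arrays, 3.70, 4.09, 4.05 and 3.81 on the Flox arrays, 4.45, 3.77, 3.75 and 3.73 on the H/A arrays and 4.51, 4.58, 4.06 and 4.41 on the Del arrays. The Flox arrays lay below all WT arrays, and H/A replicate 1 lay apart from the other 3 H/A arrays, which lay below all WT and Del arrays. Its differences were -0.43 ± 0.18, 0.03 ± 0.18 and 0.48 ± 0.18 (adjusted p = 0.0502), and -0.47 ± 0.18 (adjusted p = 0.566) in H/A against Del. Without H/A replicate 1 it fell in H/A against WT, by 0.61 (adjusted p = 0.0243). A second Galc probe, above background on 12 arrays, gave -0.17, 0.06 and 0.52 in the 3 comparisons and -0.23 in H/A against Del. Gla, alpha-galactosidase A, ranged over 10.15 to 10.63 in WT, 9.99 to 10.81 in Flox, 10.04 to 10.72 in H/A and 9.86 to 10.19 in Del, with differences of -0.13 ± 0.19, -0.37 ± 0.19 and -0.50 ± 0.19 (adjusted p = 0.0534). Without Flox replicate 4 it fell in Del against Flox, by 0.69 (adjusted p = 0.0118). Its promoter carries 2 copies of the 8-base motif. Man2b1, the lysosomal alpha-mannosidase, read 9.63, 10.88, 10.36 and 10.94 on the WT arrays, 10.95, 10.98, 10.99 and 10.94 on the Flox arrays, 10.80, 11.26, 11.41 and 10.71 on the H/A arrays and 10.66, 9.96, 10.86 and 10.88 on the Del arrays. The Flox arrays were nearly equal and the WT arrays spread over more than a log2 unit, and the differences were 0.59 ± 0.27, 0.14 ± 0.27 and -0.37 ± 0.27, 0.46 ± 0.27 in H/A against Del and 0.51 ± 0.27 in Flox against WT. Arsb, arylsulfatase B, read 5.35, 5.43, 5.58 and 5.47 on the WT arrays, 5.24, 5.38, 5.48 and 5.75 on the Flox arrays, 5.72, 6.04, 6.34 and 6.25 on the H/A arrays and 6.05, 5.53, 6.40 and 5.54 on the Del arrays. It was 0.63 ± 0.19 (adjusted p = 0.0501) in H/A against WT, and all H/A arrays lay above all WT arrays. Glb1, beta-galactosidase, was 0.32 ± 0.18, 0.46 ± 0.18 and 0.39 ± 0.18.

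Among the proteins of lipid breakdown and export, 3 of 5 rose in each of the 3 comparisons, with medians of 0.65, 0.63 and 0.85. Beside them, 7.08%, 8.85% and 16.6% of all genes rose. Lipa, the acid lipase that splits cholesteryl esters and triglycerides, read 9.80, 10.57, 9.80 and 10.01 on the WT arrays, 10.27, 9.98, 9.80 and 9.66 on the Flox arrays, 10.74, 11.04, 11.06 and 10.92 on the H/A arrays and 10.90, 10.79, 11.22 and 10.94 on the Del arrays. All mutant arrays lay above all control arrays, with WT replicate 2 and Flox replicate 1 the highest controls. The differences were 0.89 ± 0.18 (adjusted p = 0.00645) in H/A against WT, 0.92 ± 0.18 (adjusted p = 0.00375) in Del against WT and 1.04 ± 0.18 (adjusted p = 0.00122) in Del against Flox. Psap, prosaposin, the precursor of the saposins, read 11.80, 11.95, 11.81 and 11.73 on the WT arrays, 11.90, 11.63, 11.69 and 11.67 on the Flox arrays, 12.31, 12.64, 12.94 and 12.52 on the H/A arrays and 12.75, 12.51, 12.96 and 12.49 on the Del arrays. The mutant and control arrays did not overlap, and the differences were 0.78 ± 0.14 (adjusted p = 0.00387) in H/A against WT, 0.86 ± 0.14 (adjusted p = 0.00121) in Del against WT and 0.96 ± 0.14 (adjusted p = 0.000469) in Del against Flox. Both were called whichever single array was left out.

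Npc2, which hands cholesterol to Npc1 for export, read 9.75, 10.23, 9.72 and 9.75 on the WT arrays, 10.03, 9.58, 9.37 and 9.60 on the Flox arrays, 10.20, 10.48, 10.86 and 10.50 on the H/A arrays and 10.50, 10.31, 10.68 and 10.48 on the Del arrays. WT replicate 2 lay just above H/A replicate 1. The differences were 0.65 ± 0.17 (adjusted p = 0.0282) in H/A against WT, 0.63 ± 0.17 (adjusted p = 0.0256) in Del against WT and 0.85 ± 0.17 (adjusted p = 0.00326) in Del against Flox. For Npc2, only H/A replicate 1 and WT replicate 2 could be left out of H/A against WT without loss of the call (0.53 to 0.77), and it was lost in Del against WT without WT replicates 1, 3 or 4 or Del replicate 3 (0.57 to 0.75). Gm2a, the GM2 activator, was 0.24 ± 0.14, 0.19 ± 0.14 and 0.29 ± 0.14, none called. Ppt1, which removes palmitate from proteins, read 8.86, 8.27, 9.04 and 8.83 on the WT arrays, 8.68, 8.80, 9.02 and 8.89 on the Flox arrays, 8.51, 8.49, 8.56 and 8.66 on the H/A arrays and 8.78, 8.84, 8.64 and 8.79 on the Del arrays. The H/A arrays lay just below all Flox arrays, and the other groups overlapped. The differences were -0.20 ± 0.14, 0.01 ± 0.14 and -0.09 ± 0.14, and without WT replicate 2 Ppt1 fell in H/A against WT, by 0.36 (adjusted p = 0.0345).

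Of Atp6v0d1, Atp6v0d2 and Atp6v1h, subunits of the proton pump, and Mcoln1, a calcium channel of the lysosomal membrane, 1, 0 and 1 rose, a count too small to set against the share of all genes. Atp6v0d1, whose promoter carries the 8-base motif, read 9.61, 9.70, 9.46 and 9.47 on the WT arrays, 9.48, 9.55, 9.32 and 9.53 on the Flox arrays, 9.96, 9.95, 9.95 and 9.93 on the H/A arrays and 9.65, 9.79, 10.11 and 9.75 on the Del arrays. The H/A arrays were nearly equal and above all control arrays. It rose in H/A against WT, 0.38 ± 0.11 (adjusted p = 0.0453), and in Del against Flox, 0.36 ± 0.11 (adjusted p = 0.0286), and was 0.26 ± 0.11 (adjusted p = 0.126) in Del against WT. With the slide as a block the call in H/A against WT was lost (0.37, adjusted p = 0.0585). That call was kept only when WT replicate 2 was left out, and was lost without any other array (0.35 to 0.43), and in Del against Flox it was lost without Del replicate 3 or Flox replicates 1 or 3 (0.26 to 0.41). Atp6v0d2 read 6.15, 5.98, 6.32 and 6.53 on the WT arrays, 6.60, 6.12, 6.17 and 6.11 on the Flox arrays, 6.36, 6.81, 6.81 and 6.55 on the H/A arrays and 6.68, 6.60, 6.21 and 6.46 on the Del arrays. Its groups overlapped, and the differences were 0.39 ± 0.16, 0.25 ± 0.16 and 0.24 ± 0.16. Mcoln1 read 4.66, 5.07, 5.48 and 4.96 on the WT arrays, 4.70, 4.99, 5.20 and 4.94 on the Flox arrays, 4.83, 5.27, 5.71 and 5.13 on the H/A arrays and 5.16, 4.78, 5.84 and 5.21 on the Del arrays, also overlapping, with differences of 0.19 ± 0.23, 0.21 ± 0.23 and 0.29 ± 0.23. Atp6v1h was 0.26 ± 0.16, 0.33 ± 0.16 and 0.26 ± 0.16. It had 5 probes that passed the filter, and their directions differed. Other probes gave 0.20, 0.25 and 0.24, and 0.35, 0.33 and 0.41. Further ones gave -0.58, -0.14 and -0.17, and, above background on 9 arrays, -0.05, -0.82 and -0.67.

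Of the regulators, Grn rose and Tfeb did not pass the test. Tfeb, the transcription factor introduced above, read 7.55, 7.40, 7.57 and 7.52 on the WT arrays, 7.69, 7.73, 7.67 and 7.54 on the Flox arrays, 7.51, 7.42, 7.38 and 7.26 on the H/A arrays and 7.61, 7.44, 7.19 and 7.29 on the Del arrays. All H/A arrays lay below all Flox arrays, and the other groups overlapped. Its transcript was -0.12 ± 0.11, -0.13 ± 0.11 and -0.27 ± 0.11 (adjusted p = 0.0673), none called, and a second probe that was above background on all arrays gave -0.30, -0.23 and -0.37. Without Del replicate 1 Tfeb fell in Del against Flox, by 0.35 (adjusted p = 0.0306). Grn, progranulin, a secreted and lysosomal protein needed for lysosomal function, read 11.20, 11.70, 11.46 and 11.29 on the WT arrays, 11.42, 11.12, 11.24 and 11.62 on the Flox arrays, 12.14, 12.81, 12.79 and 12.40 on the H/A arrays and 12.48, 12.22, 13.14 and 12.46 on the Del arrays. All mutant arrays lay above all control arrays, with Del replicate 3 highest. The differences were 1.12 ± 0.20 (adjusted p = 0.00356) in H/A against WT, 1.16 ± 0.20 (adjusted p = 0.00174) in Del against WT and 1.22 ± 0.20 (adjusted p = 0.000962) in Del against Flox, or 2.18-fold, 2.23-fold and 2.33-fold, and the calls held whichever single array was left out.

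Over all roles, 12 members rose in all 3 comparisons: Arsa, Cd63, Ctsa, Ctsb, Ctsd, Ctsl, Ctss, Grn, Hexa, Lipa, Npc2 and Psap. The test was passed in none of the 3 by 13 members: Arsb, Atp6v0d2, Atp6v1h, Galc, Gla, Glb1, Gm2a, Lamp2, Laptm5, Man2b1, Mcoln1, Ppt1 and Tfeb. For neither count was a share over all genes computed, and the 3 comparisons share WT and Del arrays. Of the 14, 15 and 22 calls, 7, 9 and 15 were kept whichever single array was left out. Of the genes with the 8-base motif, Ctsa and Ctsd rose in all 3 comparisons and Atp6v0d1 in 2, while Gla and Mcoln1 rose in none. Of the 11 genes with the 6-base core, the other 6 were Arsa and Ctsl, called in all 3, Lamp1 in 2, Naglu and Sgsh in 1 and Glb1 in none. Beside these stand the 12 of all members called in all 3 and the 13 called in none. Cd63, Ctsb, Ctss, Grn, Hexa, Lipa, Npc2 and Psap rose in all 3 and are not among the 11. Whether the motif goes with the calls was not tested. The plot of differences with intervals sets the 3 comparisons side by side.

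**Figure D3:**
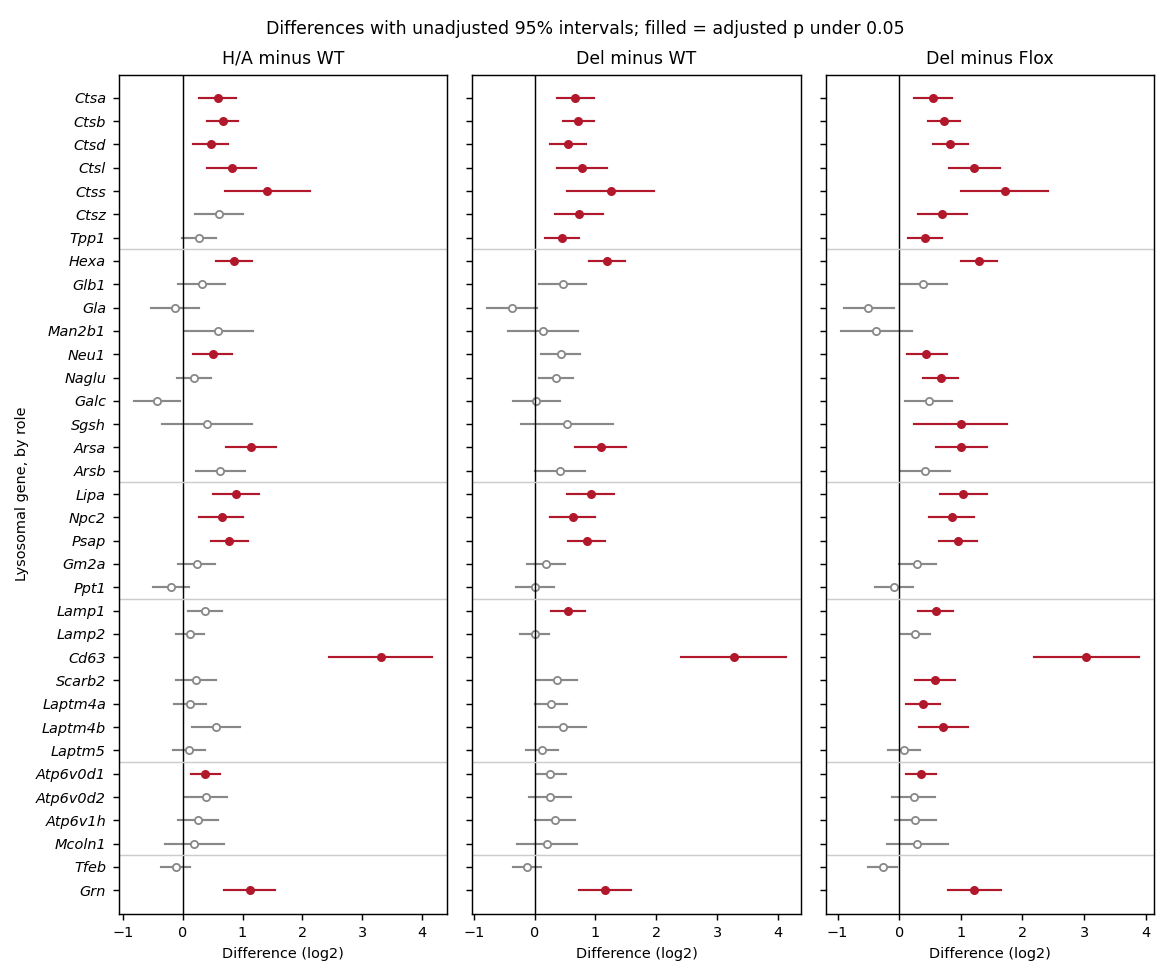
Difference of group means in log2 units for each lysosomal gene (rows, by role) in 3 comparisons, with unadjusted 95% intervals from the limma fit. Filled red points have an adjusted p under 0.05 (14, 15 and 22 genes) and open grey points do not, and Cd63 lies at 3.04 to 3.31, apart from the other genes.

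A further 127 genes of the pathway were listed by role, also with earlier results of these data known, and 117 of them were tested. In H/A against WT 24 rose and 0 fell, in Del against WT 26 rose and 1 fell, and in Del against Flox 50 rose and 5 fell. These are 20.5%, 22.2% and 42.7% rising, beside 7.08%, 8.85% and 16.6% of all genes. In H/A against Del and in Flox against WT limma called 0, with 9 and 10 at an unadjusted p under 0.05. The other subunits of the proton pump had the most calls for their number, 8, 6 and 12 of 14, with medians of 0.59, 0.54 and 0.78. Of 37 other enzymes and cofactors 7, 9 and 12 rose, and 3 fell in Del against Flox. Of 18 other membrane proteins and transporters 1, 2 and 7 rose, and 1 fell in Del against Flox. Of 8 sorting genes 1, 3 and 5 rose, of 20 genes that control lysosomal genes or mTORC1 3, 3 and 7, and of 20 autophagy genes 4, 3 and 7. The genes that fell in Del against Flox were Hyal1, Idua, Dnase2a, Tmem192 and Ulk1, a kinase that starts autophagy and was also the gene that fell in Del against WT. Without the 6 arrays, 1, 6 and 2 of the 117 were called, with none of the pump subunits among them, whose medians were 0.62, 0.55 and 0.83. Without scaling 76, 17 and 35 were called. Within the first slide limma called 0, 0 and 1, with 21, 14 and 25 at an unadjusted p under 0.05, within the second 1, 15 and 20, and with the 2 groups alone 17, 15 and 46. In H/A against WT the 24 calls became 10 to 12 without H/A replicate 2 or 3 or WT replicate 3 or 4 (4.61% to 5.14% of all genes). They became 48 without WT replicate 2 (25.5% of all genes). In Del against WT the 27 became 14 to 16 without WT replicate 3 or 4 or Del replicate 3 (6.95% to 8.46%). In Del against Flox the 55 became 33 without Del replicate 3 (16.2%).

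Rragd, a GTPase that works with mTORC1 on the lysosomal surface and is a known target of Tfeb, read 2.01, 2.96, 1.39 and 2.89 on the WT arrays, 1.41, 1.66, 1.76 and 1.42 on the Flox arrays, 4.91, 5.73, 6.61 and 5.76 on the H/A arrays and 6.38, 5.04, 6.49 and 5.12 on the Del arrays. The probe was well above background on all 8 mutant arrays and on none of the control arrays, so its control level is only a bound: the H/A mean was at least 4.86-fold higher than the WT bound, and the Del mean was at least 4.88-fold higher than that bound and at least 5.26-fold higher than the Flox bound. The bound of an array is the lowest signal among its probes well above background, or the probe's own signal where that is higher. Rragd passed the filter of 4 or more arrays only through the mutant arrays. Its calls, which enter the counts above, are therefore given as description only. Atp6v1b2, a catalytic-sector subunit of the pump, read 6.73, 7.01, 5.99 and 6.37 on the WT arrays, 6.41, 6.05, 5.80 and 6.28 on the Flox arrays, 7.59, 7.95, 8.10 and 7.91 on the H/A arrays and 7.70, 7.35, 8.30 and 7.53 on the Del arrays. It rose by 1.36 ± 0.23, 1.20 ± 0.23 and 1.59 ± 0.23 without overlap of mutant and control arrays. Sqstm1, the autophagy receptor that is itself degraded in lysosomes, read 11.46, 11.85, 11.34 and 11.75 on the WT arrays, 11.34, 11.59, 11.79 and 11.54 on the Flox arrays, 12.10, 12.50, 12.35 and 12.83 on the H/A arrays and 13.25, 12.51, 12.93 and 12.76 on the Del arrays. It rose by 0.85 ± 0.19, 1.26 ± 0.19 and 1.30 ± 0.19, again without overlap.

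Most macrophage markers were higher in the mutant lines. Of 16 macrophage and Kupffer cell markers tested (of 19 listed), 11, 9 and 9 rose in the 3 comparisons and 0, 0 and 2 fell, with medians of 1.16, 0.87 and 0.89. These are 68.8%, 56.2% and 56.2% rising, beside 7.08%, 8.85% and 16.6% of all genes. Among examples picked after their values were seen, Adgre1 was 1.70, 1.22 and 0.87 higher, Cd5l 1.32, 0.96 and 1.56 and Mpeg1 1.57, 1.62 and 1.30, while Timd4 was 0.12, 0.12 and -0.22, C1qc -0.41, -0.37 and -0.52, Csf1r -0.46, -0.57 and -0.72 and Tyrobp -0.43, -0.29 and -0.38. Csf1r and C1qc were the markers that fell in Del against Flox. As given above, the summed level of the 16 markers did not overlap between control and mutant arrays. The brightest markers weigh most in that sum, and no share over all genes was computed for it. No marker of the list was at 0, and 2 of the 16, Cd14 and Cx3cr1, were above background on fewer than 16 arrays (13 and 10). Without the 6 arrays, 3, 2 and 0 macrophage markers rose, with medians of 1.23, 0.89 and 1.23.

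Fewer markers of other cell types were called, and 7.08%, 8.85% and 16.6% of all genes rose in the 3 comparisons. Of 9 hepatocyte markers 1, 0 and 1 rose (Cps1), with summed levels of 18.40 to 18.55 over all 4 groups, and all 9 were well above background on all 16 arrays. Of 7 neutrophil markers 2, 1 and 1 rose (S100a8, with S100a9 in H/A against WT), with summed levels of 8.18 to 8.82 in the control lines and 8.76 to 9.92 in the mutant lines. The 6 lymphocyte markers had medians of -0.09, -0.19 and -0.34 and the 7 sinusoidal endothelial markers 0.07, -0.23 and 0.07, and no marker of these passed the test. In Del against Flox, 3 of 7 stellate cell and fibroblast markers (Dcn, Col1a1 and Acta2, 42.9%) and 1 of 4 cholangiocyte markers (Sox9) rose. The stellate cell and fibroblast medians were 0.25, 0.38 and 0.51 in the 3 comparisons. The cholangiocyte medians were 0.36, 0.36 and 0.80, with all 4 differences positive in each. Ptprc, the common leukocyte antigen, rose by 0.90 in H/A and by 0.87 in Del against WT, and was 0.56 higher in Del than in Flox (adjusted p = 0.0649). No part of these cells in the results was tested. The plot of shares called shows the lists beside all genes.

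**Figure D4:**
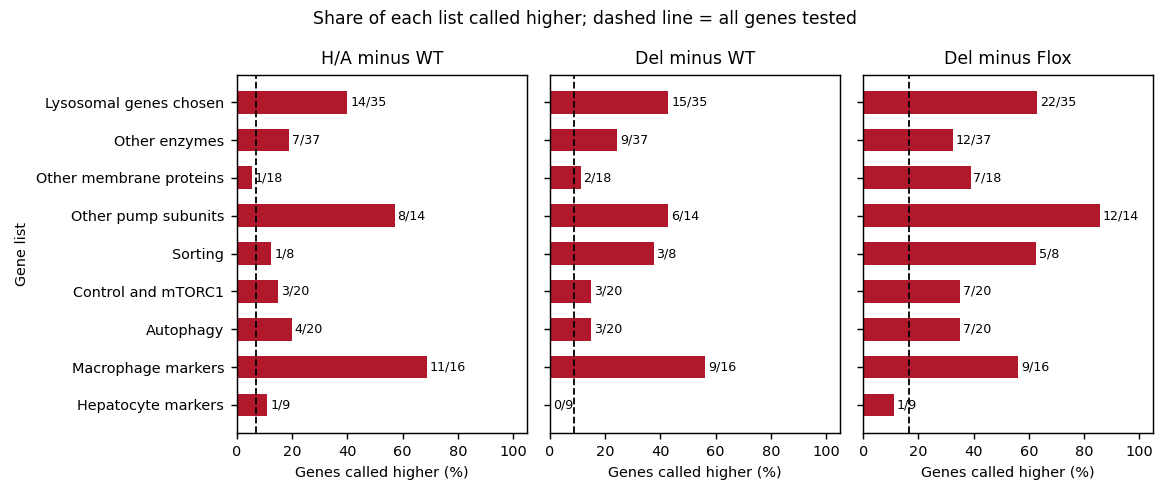
Percentage of the genes of each list called higher at an adjusted p under 0.05 in 3 comparisons, with the numbers called and tested at the end of each bar. The dashed line is the share of all 31484 genes called higher (7.08%, 8.85% and 16.6%). All lists lie above it in all 3 panels except 2. The other membrane proteins lie below it in H/A against WT (5.56%). The hepatocyte markers lie below it in Del against WT (0.0%) and in Del against Flox (11.1%).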

How the data were processed

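Liver RNA of 16 mice was labelled with Cy3 and hybridised to 16 1-colour Agilent arrays on 2 slides, 1 array a mouse. Each scanner file gives spot intensity values that Feature Extraction had background-subtracted, per the file headers. The submitters' processing notes name Agilent Feature Extraction 11 and Partek. The value table deposited by the authors holds log2 values with the same quartiles in all 16 columns (median 4.36), and 99.93% of them lay within 0.1 of log2 values from the scanner files paired by label after quantile normalisation.

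The scanner software marked 37819 of 60037 probes as well above background on 4 or more arrays, and these were kept, and 36264 probes could be given a symbol through RefSeq transcripts of GRCm38.p6. The brightest probe stood for a gene, which gave 31484 genes. All were fitted in 1 linear model of 4 groups with limma 3.58.1 in R 4.3.3, tested on simulated data beforehand. By the labels, slide 1 held 3 H/A, 2 WT, 1 Del and 2 Flox arrays. The alternatives were other sources of the values, background correction and scaling, other filters, probe averaging, the slide as a block or alone, the 2 groups alone, trend and robust moderation and leaving out arrays. Leaving out the 6 arrays was chosen after seeing the data.

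All 37 members are named. Full values are given for those called in at least 2 of 5 comparisons or among the 3 largest or 3 smallest absolute differences of a comparison. Other pathway genes with values are among the 3 largest of a comparison, and further genes are named where a count is 5 or fewer. A further gene that this rule names is not reported here. The members and lists were chosen with earlier results of these data known.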

Additional observations from a re-analysis of the deposited data

Results flagged for a closer look

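In 6 of 140 sets of 4 arrays (35 genes in 4 groups), 1 array lay far from the other 3 by Dixon's test, where chance gives about 1 in 20. WT replicate 2 was high for 3 genes: Glb1 at 7.86 beside 7.21 to 7.31, Npc2 at 10.23 beside 9.72 to 9.75 and Cd63 at 8.78 beside 7.82 to 7.98. Gla was low on Flox replicate 4, at 9.99 beside 10.69 to 10.81. Galc was high on H/A replicate 1, at 4.45 beside 3.73 to 3.77. Atp6v0d2 was high on Flox replicate 1, at 6.60 beside 6.11 to 6.17.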

How the results depend on the processing

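The counts of lysosomal genes called (14 in H/A against WT, 15 in Del against WT and 22 in Del against Flox, all higher) stayed within 1.5 times with the scanner files paired by label, normexp, other filters, averaged probes, the slide as a block and other moderation, as did 0 in H/A against Del and Flox against WT under every alternative run. With the scanner files as listed, 0.0159%, 0.00318% and 0.0% of all genes were called in either direction. At an unadjusted p under 0.05 in limma, 0, 0 and 3 members and 4, 7 and 9 other pathway genes passed there. The counts of members called were 0, 0 and 0, as were those of the other pathway genes. Within slide 1 they were 0, 0 and 0, and within slide 2 they were 2, 9 and 13, where fewer arrays enter. Without the 6 arrays they were 3, 5 and 2. In H/A against WT, Del against WT and Del against Flox, a smaller share of all genes was called too within either slide and without the 6 arrays. In H/A against Del the share was not smaller within either slide. Without scaling 29 members were called in H/A against WT, beside 30.3% of all genes, and with the 2 groups alone 9, beside 5.8%. The cause was not tested. Leaving out 1 array gave 7 (without H/A replicate 3 or WT replicate 4) to 18 (without WT replicate 2), 9 (without Del replicate 3) to 19 (without WT replicate 2), and 16 (without Del replicate 3) to 23 (without Del replicate 2), while 4.61% to 25.5%, 6.95% to 22.8% and 16.2% to 37.8% of all genes were called. In Del against Flox, Tfeb (-0.19) was called lower with normexp and Gla (-0.50) with the stricter filter and with trend and robust moderation. Of 140 group levels, 137 moved by under 1 SD with the files paired by label, 120 with averaged probes, 114 with the files as listed, 84 with normexp and 76 without scaling. Precision is limited by 4 arrays a group. No paired analysis was possible because the labels give no replicate numbers that groups share.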
